A study of Mus musculus with 13 samples.

Results

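Mptx1 and Mptx2 are the mucosal pentraxins of the mouse, a pair of paralogs on chromosome 1 whose transcripts are found in the crypts of the small intestine. They were followed by symbol through 13 CEL-seq libraries of sorted small-intestinal cells, as 2 of 16204 genes listed in at least 1 library. A barcode was kept as a cell with at least 3000 transcripts, spike-in RNA left out, which kept 892 of 1248 barcodes. The pair was selected on its summed levels at 8 weeks, where both genes were known to be higher in traced than in non-traced cells of these libraries. That comparison is therefore given as a description with no test. The 8-week traced CD24+ libraries also enter the tests against 5 days, which are thus not independent of this selection.

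The mice carried Lgr5-CreERT2 on a C57Bl6/J background and a Rosa26LSL-YFP reporter, so that tamoxifen switches on YFP in Lgr5-expressing stem cells and in all their later descendants. All groups share this genotype. Traced (YFP+) cells were collected 5 days after tamoxifen with no CD24 selection (5 libraries), at 3 weeks from the CD24+ fraction (1 library), and at 8 weeks from the CD24+ fraction (3 libraries) or without that gate (1 library). CD24 is a surface protein used to enrich Paneth and other secretory cells. Cells described as non-traced CD24+ controls came from 3 weeks (1 library) and 8 weeks (2 libraries). The labels give neither the age of the mice nor how many animals a library holds, so the spread between libraries may be technical. A combined deposited table names a 3-week set for YFP without CD24 and none for non-traced 3-week cells, whereas the labels name the reverse, and the library labelled 3-week non-traced entered no test.

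Pentraxins are secreted proteins that assemble into rings of identical subunits and bind phosphocholine and other ligands on microbes and damaged cells in the presence of calcium. The short pentraxins Crp (C-reactive protein) and Apcs (serum amyloid P) are made mainly by the liver and can recruit complement component C1q and Fc receptors. The mucosal members are made in the gut epithelium instead. Paneth cells, which sit at the base of the crypt between the stem cells, are long-lived secretory cells that release alpha-defensins, lysozyme and other antimicrobial proteins.

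Both genes lie on chromosome 1 of GRCm38 (the build called mm10 in the submitters' processing notes). In the GENCODE vM21 annotation Mptx2 (ENSMUSG00000079180.4) spans 173274382 to 173277777 on the minus strand and Mptx1 (ENSMUSG00000026531.4) spans 174330518 to 174332873 on the plus strand, each with 1 transcript of 2 exons. Crp starts at 172698055 and Apcs at 172893961 on the same chromosome, each also with 2 exons in its first transcript. Between Mptx2 and Mptx1 lie 1053 kb and 25 protein-coding genes, 9 of them olfactory receptors and 13 of them interferon-inducible genes of the Ifi200 kind. None of those 25 reached 1 transcript per 10000 in Paneth-like cells. The highest was Aim2, a DNA sensor, at 0.0519 per 10000.

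The 2 transcripts are near copies of each other. Their annotated lengths are 799 bases for Mptx1 and 794 bases for Mptx2, and 734 of 794 aligned bases were the same (92.4%). Mptx1 shared 71.6% of aligned bases with Crp and 67.2% with Apcs. Of the 750 stretches of 50 bases in Mptx1, 134 (17.9%) also occur in Mptx2, and of the 725 stretches of 75 bases, 73 (10.1%) do. These are the 2 read lengths the labels give for the series. In the last 300 bases, the end that CEL-seq reads, 89.5% of aligned bases were the same, the longest identical run was 30 bases, and 0 of 251 and 0 of 226 such stretches were shared. How reads that fit both genes were assigned is not given in the sources used here, so the split between the 2 genes carries that uncertainty.

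The sequences ahead of the 2 start sites are shown because they carry the same likeness. They are the 200 bases of GRCm38.p6 before the more upstream of the RefSeq and GENCODE starts, written in the direction of transcription (Mptx1 at chr1:174330318-174330517, plus strand, and Mptx2 at chr1:173277778-173277977, minus strand). For Mptx2 that is the GENCODE start, which lies upstream of the RefSeq start, so its printed bases and the RefSeq windows below are not on the same scale. Capitals mark bases that differ from the other gene or have no partner in the alignment, 33 in each.
Mptx1: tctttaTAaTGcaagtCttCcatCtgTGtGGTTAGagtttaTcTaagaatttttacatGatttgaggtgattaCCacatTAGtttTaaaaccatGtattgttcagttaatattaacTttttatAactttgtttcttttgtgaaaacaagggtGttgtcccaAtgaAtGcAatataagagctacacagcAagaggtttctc
Mptx2: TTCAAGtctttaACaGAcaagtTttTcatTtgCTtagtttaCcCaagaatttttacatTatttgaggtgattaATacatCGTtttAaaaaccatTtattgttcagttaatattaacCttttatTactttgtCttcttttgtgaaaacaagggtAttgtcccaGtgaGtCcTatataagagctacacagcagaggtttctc
In this alignment 167 of 193 paired bases were the same (86.5%), with 26 substitutions. Of 10 short motifs searched on both strands in the 250 bases ahead of each RefSeq start, 2 had a match in Mptx1 and 0 in Mptx2. Mptx1 held TATAAA, the core of the TATA box, 2 times, beginning at positions -198 and -82 from the start and read on the opposite strand, and CTTTGA (TCF/LEF) 1 time, beginning at -208. TATAAA occurs in 12.4% and CTTTGA in 13.8% of all 32851 promoter windows of that length. The other motifs had no match in either window. They were ACAATG of SOX factors (in 10.7% of all windows), TTTATG of the intestinal factor CDX2 (10.8%), TTCNNNGAA of STAT factors (7.02%), TTGCGCAA of C/EBP factors (0.164%), CAGCTG of the secretory factor BHLHA15 (13%), TGACGTGG of XBP1 (0.563%), CAAAGTCCA of HNF4 factors (0.384%) and TGATAA of GATA factors (7.94%). The longer string TATATAAG, searched after the sequences had been read, occurs 1 time in the printed Mptx2 sequence, beginning at -30 from the GENCODE start, and 0 times in that of Mptx1, and is held by 0.935% of all windows. A match describes these letters and no binding was measured.

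The pair was found almost wholly in Paneth-like cells. Paneth-like cells were 82 of 892 kept cells (9.19%), in 3 of 17 clusters built without Mptx1 and Mptx2, yet they held 14883 of 15867 Mptx2 transcripts (93.8%) and 1025 of 1067.5 Mptx1 transcripts (96.04%). Values are deposited transcript estimates per cell, which need not be whole, and a level is the summed estimate of a gene per 10000 transcripts of the same cells. CEL-seq counts a molecule from its end, so levels were not divided by transcript length. All 22 Paneth markers, among them lysozyme (Lyz1) and Defa24, were raised in clusters 12 and 14, and 16 of 22 in the smaller cluster 16, whose leading genes were the goblet genes Spink4 and Tff3. Paneth-like cells numbered 1, 7, 8, 2 and 3 in the 5-day libraries (replicates 1 to 5), 13, 6 and 13 in the 8-week traced CD24+ libraries, 3 in the ungated 8-week library and 15 and 11 in the 8-week non-traced libraries, and 0 in both 3-week libraries. Over all kept cells the 3-week traced library held 3 Mptx1 and 2 Mptx2 transcripts among 437261, and the library labelled 3-week non-traced held 0 of either among 370384.

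Within Paneth-like cells Mptx2 was one of the most abundant messages. In the 9 libraries with at least 3 such cells it ranked between 10 and 16 among all genes by level. Mptx1 ranked between 34 and 94 at 5 days and between 124 and 770 at 8 weeks. No other pentraxin came near the pair. Of the 9 family members listed, 7 were in the files, and the highest of the other 5 in Paneth-like cells was the neuronal pentraxin Nptx2, at 0.0260 per 10000. Of the pentraxins made mainly by the liver, Crp had 1 transcript in Paneth-like cells and Apcs had 0. Of 16 complement and Fc receptor genes that pentraxins can engage, 11 were in the files. The highest was complement factor B (Cfb), at 0.906 per 10000 in Paneth-like cells and 1.53 in all other cells. C1qa, a subunit of C1q, had 1 transcript in Paneth-like cells.

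**Figure D1:**
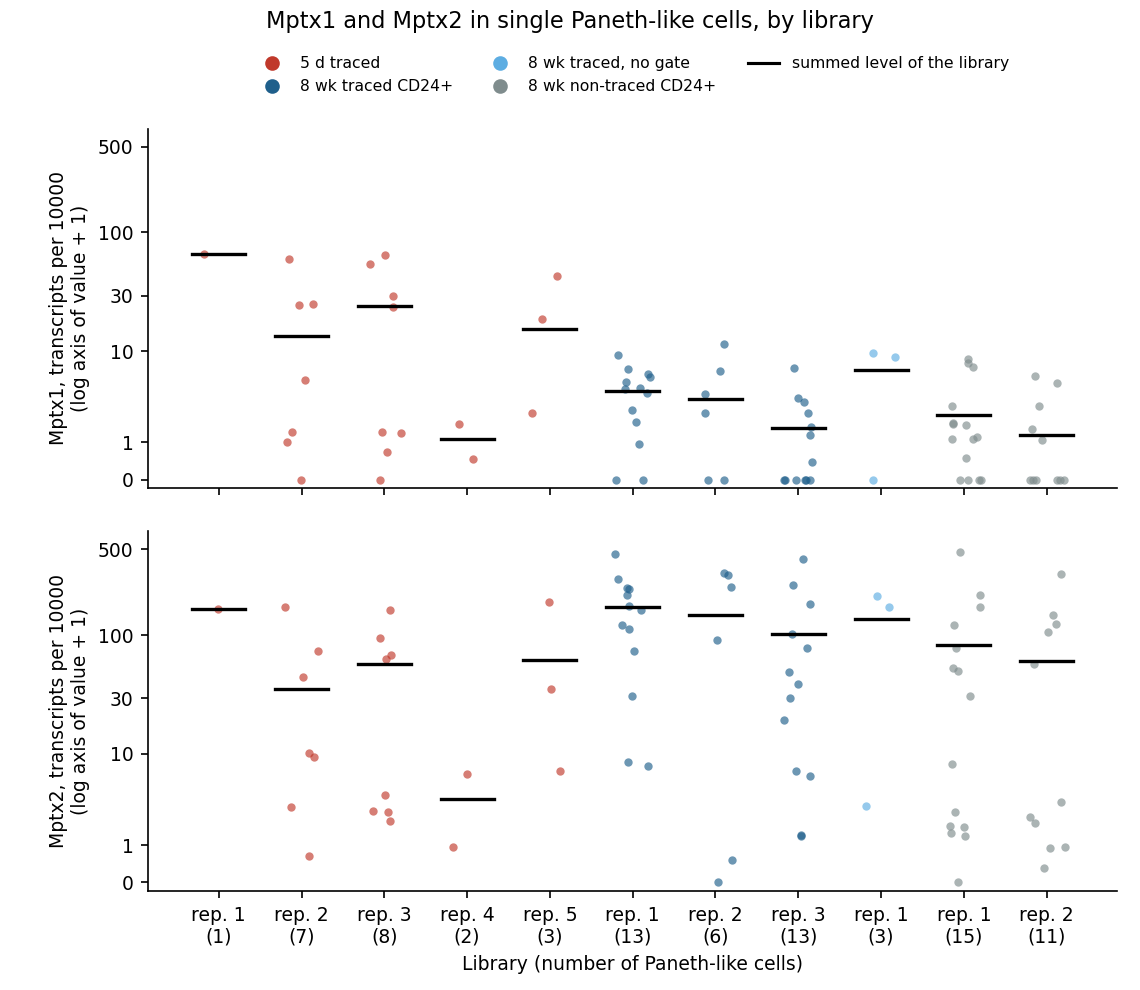
Transcripts per 10000 of Mptx1 (top) and Mptx2 (bottom) in each of 82 Paneth-like cells (dots), by library, with the summed level of the library as a black line. Mptx1 dots above 30 occur in 5-day libraries, and Mptx2 reaches its highest values, up to 476, in 8-week libraries.

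Between 5 days and 8 weeks the levels of the 2 genes moved in opposite directions in Paneth-like cells. Mptx1, in order of replicate, stood at 66.8, 13.6, 24.3, 1.15 and 15.8 per 10000 in the 5-day traced libraries and at 4.18, 3.49 and 1.63 in the 8-week traced CD24+ libraries. The 2 extreme 5-day values come from libraries with 1 and 2 Paneth-like cells. Among libraries with at least 3 such cells Mptx1 averaged 17.9 ± 5.67 per 10000 (SD, n = 3) at 5 days and 3.10 ± 1.32 (n = 3) at 8 weeks.

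Mptx2 went the other way. It stood at 163, 36.1, 57.7, 3.76 and 62.2 per 10000 in the 5-day libraries and at 170, 147 and 102 at 8 weeks. In libraries with at least 3 Paneth-like cells Mptx2 averaged 51.97 ± 13.95 (SD, n = 3) and 139 ± 34.6 per 10000 (n = 3). The single Paneth-like cell of 5-day replicate 1 was as high in Mptx2 as the 8-week libraries and highest of all in Mptx1.

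On the counts summed per library, Mptx1 was lower at 8 weeks by a log2 fold change of -2.29 ± 0.33 (SE; adjusted p = 1.04e-04) and Mptx2 was higher by 1.65 ± 0.28 (adjusted p = 3.89e-04), by edgeR's quasi-likelihood test with Benjamini-Hochberg adjustment over 1131 genes, 3 against 3 libraries. In that comparison 44.7% of all genes tested passed, 22.1% as higher and 22.5% as lower, so passing alone does not single out the pair. Its 8-week arm also holds levels by which the pair was selected, so the p of Mptx2 is no independent support. Ordered by log2 fold change from the deepest fall (rank 1) to the largest rise (rank 1131), Mptx1 was at rank 19 and Mptx2 at rank 1048. With 1 library left out in turn the log2 fold change stayed between -2.71 and -1.91 for Mptx1 and between 1.40 and 1.89 for Mptx2, with every adjusted p at or below 0.00975.

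Time after tamoxifen, the CD24 gate and the sex of the mice cannot be told apart in this comparison. Xist, transcribed in females, was at most 0.0134 per 10000 in each 5-day library and at least 0.813 in each later one, and the Y-linked Ddx3y was at least 0.197 in each 5-day library and 0 in each later one. The ungated 8-week library had no gate either, like the 5-day libraries, and its 3 Paneth-like cells stood at 6.71 per 10000 for Mptx1 and 136 for Mptx2. Over all 5 5-day libraries Mptx1 ran from 1.15 to 66.8 and Mptx2 from 3.76 to 163, which include both values. Over the 5-day libraries with at least 3 Paneth-like cells the ranges were 13.6 to 24.3 and 36.1 to 62.2, which do not. This is 1 library with 3 such cells, and the part of the gate was not tested.

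Cluster 14 held 20 of 21 Paneth-like cells from day 5, and cluster 12 held 22 of 32 from the traced CD24+ libraries at week 8. Opposite movement was present within cluster 14 alone. There the summed level of Mptx1 was 16.3 per 10000 in 20 5-day cells and 2.54 in 8 traced CD24+ 8-week cells, and that of Mptx2 was 44.1 and 110. In the same test restricted to this cluster, an alternative chosen after seeing the data with 3 against 2 libraries, Mptx1 had a log2 fold change of -2.97 (adjusted p = 1.91e-04) and Mptx2 of 1.27 (adjusted p = 0.0182), while 41 of 727 genes passed.

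The share of Paneth-like cells that held a transcript at all depended on depth for both genes. After each cell was thinned to 3000 transcripts, Mptx2 was found in 19 of 21 Paneth-like cells at 5 days (90.5%) and in 50 of 61 at 8 weeks (81.97%), and Mptx1 in 13 of 21 (61.9%) and 30 of 61 (49.2%). Unthinned, the shares were 100% and 96.7% for Mptx2 and 90.5% and 65.6% for Mptx1. By library the unthinned Mptx1 share ran from 85.7% to 100% at 5 days and from 53.8% to 84.6% in the 8-week traced CD24+ libraries, which did not overlap (difference -22.7 percentage points, exact permutation p = 0.1, the smallest possible). The thinned shares did overlap. In tuft-like cells, a lineage not known to make these proteins, thinned shares at 8 weeks were 35.04% of 117 cells for Mptx2 and 0 for Mptx1, and unthinned 67.5% and 2.56%. Median depth was 7217 transcripts in those cells and 18135 in the Paneth-like cells. Over libraries the mean thinned share of Paneth-like cells with Mptx1 was 73.2% ± 23.4 at 5 days and 55.6% ± 28.6 at 8 weeks (SD, n = 3 each; exact two-sided permutation p = 0.6, adjusted p = 0.6). For Mptx2 it was 91.1% ± 7.78 and 83.8% ± 16.7 (exact permutation p = 0.5, adjusted p = 0.6 over 3 tests). With 3 against 3 libraries this test cannot go below 0.1.

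The balance between the 2 genes differed between the 5-day and 8-week libraries, whose time and sex of the mice cannot be told apart. Mptx1 made up 29.1%, 27.4%, 29.7%, 23.5% and 20.2% of the pair's transcripts in the Paneth-like cells of the 5 5-day libraries. It made up 2.40%, 2.32% and 1.58% in the 8-week traced CD24+ libraries, 4.70% in the ungated 8-week library, and 2.77% and 2.07% in the 8-week non-traced libraries. No 5-day library overlapped any 8-week library, traced or not, and this balance within a library does not depend on how libraries are scaled. It held also in 5-day replicates 1 and 4, whose levels of both genes were far apart.

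The Mptx2 part of the pair was 74.2% ± 4.94 at 5 days and 97.9% ± 0.454 at 8 weeks (SD, n = 3 each), a difference of 23.7 percentage points (exact two-sided permutation p = 0.1, the smallest the design allows; adjusted p = 0.3 over 3 tests). With all 5 5-day libraries, an alternative chosen after seeing the data, the exact permutation p was 0.0357, again the smallest possible, and the 5-day range of 70.3% to 79.8% stayed apart from the 8-week range of 97.6% to 98.4%.

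Cell by cell the same separation was seen. In Paneth-like cells with at least 20 transcripts of the pair, the Mptx1 part ran from 13.3% to 36.9% with a median of 29.1% in 13 5-day cells. It ran from 0 to 6.52% with a median of 1.95% in 24 traced CD24+ 8-week cells, and from 1.45% to 5.49% in 13 non-traced 8-week cells. All 13 cells from day 5, and 0 of 39 from week 8, were at 10% or more. Cells of a library share their source, so these are descriptions, and the minimum of 20 was set after the values were seen. Traced and non-traced 8-week libraries, which share time and gate, overlapped in this part, at 2.10% ± 0.454 (SD, n = 3) and 2.42% ± 0.491 (n = 2).

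**Figure D2:**
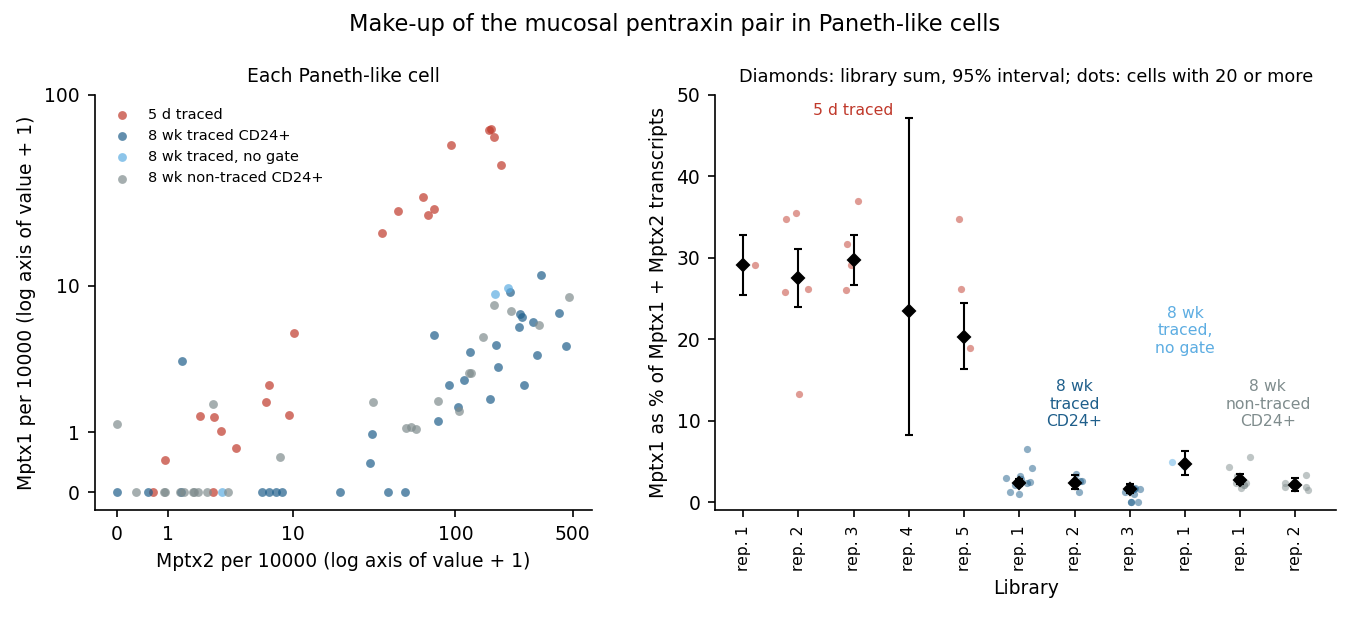
Left, Mptx1 against Mptx2 (transcripts per 10000, log axes of value + 1) in each of 82 Paneth-like cells, coloured by group; right, Mptx1 as percent of the pair by library (diamonds, with exact 95% binomial intervals) and in cells with at least 20 transcripts of the pair (dots). The 5-day cells lie on a line of their own, with library values from 20.2% to 29.7% against 1.58% to 4.70% at 8 weeks.

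The 2 genes varied together from cell to cell even though their balance differed between the 5-day and 8-week libraries. Across 79 Paneth-like cells of 9 libraries, with each cell taken as its deviation from the mean of its library on the log2(transcripts per 10000 + 1) scale, Pearson's r between Mptx1 and Mptx2 was 0.82. It was 0.98 in 18 5-day cells and 0.83 in 61 8-week cells, and 0.73 after thinning to 3000 transcripts per cell. The cells share libraries and the reads of the near-identical genes may be shared, so no p is given. Depth went with neither gene, at r = 0.06 for Mptx2 and -0.10 for Mptx1 with the log2 transcript number of the cell.

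Levels within a library were wide. In 8-week non-traced replicate 1 Mptx2 ran from 0 to 476 per 10000 with a median of 31.6, and in replicate 2 from 0.296 to 317 with a median of 3.51. In those 2 libraries 7 of 15 and 6 of 11 Paneth-like cells were under 10 per 10000, 0 were between 10 and 30, and the rest were higher. In the 8-week traced CD24+ libraries 2 of 13, 2 of 6 and 4 of 13 cells were under 10, and 0, 0 and 1 were between 10 and 30. Cells low in Mptx2 were thus present in every library with at least 3 Paneth-like cells, including 3 of 7, 4 of 8 and 1 of 3 at 5 days.

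Paneth state went with the pair. Cluster 12, led by Ang4 and Defa17, had 147 Mptx2 transcripts per 10000 over 38 cells, cluster 14, led by Gm14851 and Gm15284, had 65.1 over 30 cells, and cluster 16 had 19.9 over 14 cells. A single cell held 433.9 of the 476.4 Mptx2 transcripts of cluster 16, and the other 13 cells stood at 1.88 per 10000, a split made after the values were seen. For Mptx1 the levels were 5.74, 10.3 and 0.507 per 10000. In cluster 16, 3 of 14 cells held an Mptx1 transcript and 12 of 14 an Mptx2 transcript. The clusters were built from these same cells, so their contrast is no test, and the order of clusters 12 and 14 for Mptx1 follows the 5-day cells that fill cluster 14. Those cells also widen the contrast for Mptx2, which in 8-week traced CD24+ cells alone was 160 per 10000 in cluster 12 and 110 in cluster 14.

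Traced and non-traced Paneth-like cells at 8 weeks differed in Mptx2, the difference by which the pair was known. Traced CD24+ libraries stood at 170, 147 and 102 per 10000 and non-traced CD24+ libraries at 82.5 and 61.6 (means 139 ± 34.6, n = 3, and 72.04 ± 14.7, n = 2). All 3 traced libraries were above both others, and the share of all genes that separate in this way is not given here.  For Mptx1 the traced libraries stood at 4.18, 3.49 and 1.63 and the non-traced at 2.35 and 1.30 per 10000, and these overlapped.

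The 2 groups were spread unevenly over the clusters, and the part of this in the difference was not tested. Cluster 16 held 11 of 26 non-traced Paneth-like cells and 2 of 32 from traced CD24+ libraries. Within cluster 12 alone Mptx2 was 196, 156 and 113 per 10000 in the traced libraries and 135 and 86.2 in the non-traced, which overlapped, and the log2 ratio of means was 0.49 in place of 0.95. The summed goblet markers in Paneth-like cells moved with the groups. They were 93.3 to 129 per 10000 at 5 days, 232 to 380 in traced CD24+ and 438 to 494 in non-traced 8-week libraries, with 8 to 11 of 11 markers above 0 in each library and only Clca1, Clca3 and Zg16 at 0 in any. Their part in the levels of Mptx2 was not tested. Enterocyte markers summed to 5.21 to 10.7 per 10000 at 5 days and 0.491 to 1.47 in the CD24+ libraries at 8 weeks, and markers of leukocytes did not exceed 1.20 in any.

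Outside Paneth-like cells both genes were at low levels, which over all these cells together lay within the range of other Paneth messages. In the 9 libraries with at least 3 Paneth-like cells, the remaining 559 cells had Mptx2 at 1.46 per 10000, 1.49% of the Paneth-like level, and Mptx1 at 0.0507, or 0.883%. For 19 Paneth markers with at least 10 per 10000 in Paneth-like cells the same percentage had a median of 1.26% and ran from 0.869% to 3.65%. In the 3 libraries from day 5 alone Mptx2 was at 1.76% and Mptx1 at 0.580%, against a median of 0.555% and a range of 0.0903% to 3.05% for 18 markers. In the 6 libraries from week 8 Mptx2 was at 1.54% and Mptx1 at 1.08%, against a median of 1.502%. Mptx2 thus stood above the markers' median at day 5 and close to it at week 8. Mptx2 was at 2.03% in tuft-like, 1.55% in enteroendocrine-like, 1.22% in stem-like, 1.00% in proliferating and 0.301% in enterocyte-like cells. With both times pooled, these lie within the markers' range in each of those classes. At 5 days alone the markers reached at most 1.22% in stem-like and 1.045% in proliferating cells. Over all 5-day libraries Mptx2 stood at 0.972 and 0.741 per 10000 in these 2 classes, beside 51.8 in Paneth-like cells. As percentages both were above those limits, though over more libraries than the markers' limits. The pooled statement thus need not hold at 5 days. No expression by these cells is read from such levels, and their source was not tested.

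With both times pooled, goblet-like cells stood higher for Mptx1, at 4.62% of the Paneth-like level, and at 2.63% for Mptx2, against a median of 6.94% for the markers. The pooled percentages mix times with unlike Paneth-like levels of Mptx1. Over all 5-day libraries Mptx1 was 0.464 per 10000 in goblet-like and 19.6 in Paneth-like cells. In the 8-week traced CD24+ libraries it was 0.0709, from 2 transcripts, and 3.09. Most of the Mptx2 of goblet-like cells came from 1 non-traced 8-week cell of 145040 transcripts with 156 Mptx2 transcripts, 7.91% of its transcripts being from Paneth markers. Without that cell Mptx2 in the goblet-like cells of these 9 libraries was at 0.770% of the Paneth-like level, and Mptx1 at 4.02%. The 90 goblet-like cells of all libraries that remain had Mptx2 at 0.553 per 10000 in place of 1.83. No doublets were removed, and whether this barcode held more than 1 cell was not tested.

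**Figure D3:**
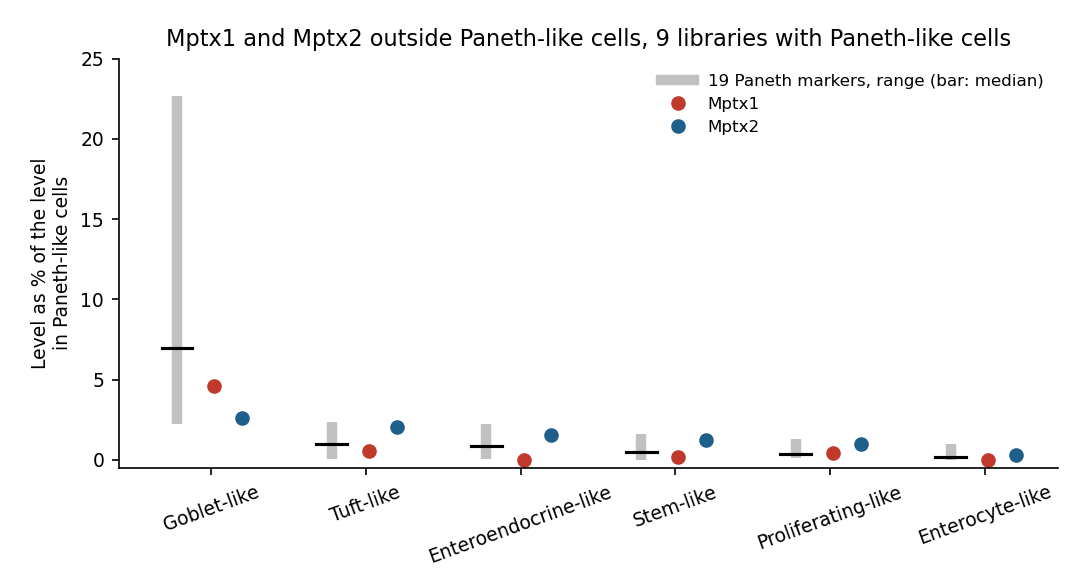
Level of Mptx1 (red) and Mptx2 (blue) in each other cell class as percent of the level in Paneth-like cells of the same 9 libraries, beside the range and median of 19 Paneth markers (grey). With both times pooled, Mptx2 lies within the markers' range in every class drawn. In this pooling goblet-like cells have the highest percentage for both genes, which for Mptx2 rests on 1 cell (0.770% without it).

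The make-up of this low signal differed between classes at 5 days. In the 5-day libraries Paneth-like cells held 701.4 Mptx1 and 1856 Mptx2 transcripts, an Mptx1 part of 27.4% (exact 95% interval 25.7% to 29.2%). In the 286 cells that were neither Paneth-like nor goblet-like the numbers were 11 and 211.5 transcripts, a part of 4.95% (2.49% to 8.65%). The latter was below the Paneth-like part of the same library in replicates 1, 2, 3 and 5, at 6.21%, 7.14%, 4.34% and 2.31%, and replicate 4 held 4 transcripts in such cells. Stem-like cells were at 4.23%, proliferating cells at 4.75% and unnamed cells at 6.22%, while none of the 12 transcripts in enterocyte-like cells was Mptx1. Unnamed cells include cluster 9, of 45 cells, which had 10 goblet and 10 enterocyte markers raised. It was left unnamed because 91.1% of its cells came from 1 library. Any goblet cells in cluster 9 are thus counted among the other cells and not as goblet-like.

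The 5-day goblet-like cells differed from those classes. Their 25 cells held 15.1 Mptx1 and 23.1 Mptx2 transcripts, a part of 39.5% (24.04% to 56.6%), and 7 of 25 cells held Mptx1. Without the cell highest in Mptx1 the part was 30.3% (15.6% to 48.7%). By library it was 22.2%, 29.98%, 90.1% and 11.1% in replicates 1, 2, 3 and 5, each from about 10 transcripts or fewer. The median Paneth marker share of these cells was 0.263%, against 35.8% in Paneth-like cells. At 8 weeks the 3 kinds of cell were closer, at 2.43% in Paneth-like, 4.09% in goblet-like and 0.891% in all other cells. These intervals cover counting error only, and the split by class was made after the values were seen. Whether reads of the 2 genes were assigned alike in all libraries was not tested. Paneth-like and other cells of a 5-day library were processed together.

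**Figure D4:**
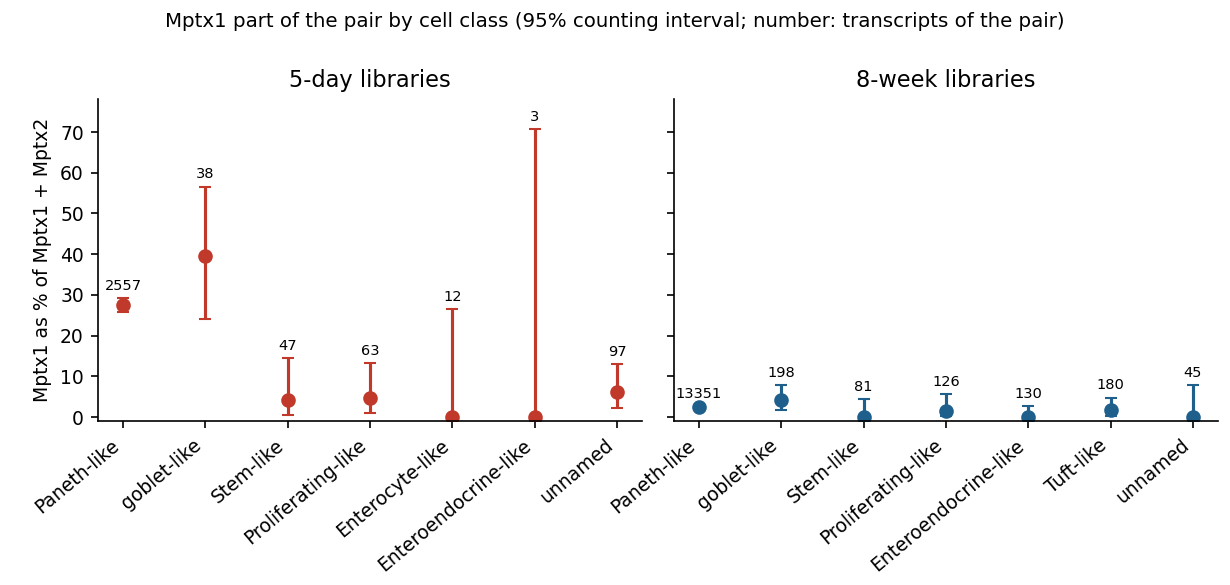
Mptx1 as percent of Mptx1 + Mptx2 transcripts, summed over the cells of each class, at 5 days (left) and 8 weeks (right), with exact 95% binomial intervals and the number of transcripts of the pair. At 5 days Paneth-like (27.4%) and goblet-like cells (39.5%) stand above stem-like (4.23%) and proliferating cells (4.75%).

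Alpha-defensins were the genes most like Mptx2 across Paneth-like cells. Among 875 genes with a mean of at least 1 per 10000, those with the highest r to Mptx2 included the defensin-family genes Gm14851 (0.67), Gm15292 (0.64), Defa26 (0.63), Defa-rs7 (0.62), Defa23 (0.61), Gm15284 (0.60), Defa5 (0.58) and Gm14850 (0.54), and the ribonuclease Ang4 (0.54). The 5 highest for Mptx1 came from the same families, Gm15292 (0.50), Defa26 (0.47), Gm14851 (0.46), Defa23 (0.42) and Gm15284 (0.41). Defensin genes are near copies of one another, and how reads were split among them is uncertain.

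At the other end were genes of general cell upkeep. The lowest r to Mptx2 included those of the ribosomal protein genes Rpl41 (-0.61), Rpl23 (-0.57) and Rpl9 (-0.57) and of the protein-folding enzyme Pdia3 (-0.58). The median r over all 875 genes was -0.24, and -0.13 after thinning. Of 26 alpha-defensins 21 were measured at this level, all with a positive r to Mptx2 (0.20 to 0.67, median 0.50). Of 22 other secreted defence proteins 14 were, from -0.50 to 0.54 with a median of 0.20, and of 12 regulators of the Paneth lineage 5 were, from -0.36 to 0.02. The 8 goblet markers measured had a median of -0.36. The share of a cell's transcripts from Paneth markers had an r of 0.61 with Mptx2 and 0.47 with Mptx1.

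The genes most like Mptx2 were not the same at each time. With 8-week cells alone 9 of the 10 genes with the highest r stayed among the 10 highest. With the 18 5-day cells alone 1 of 10 did, and Gm14850 went from 0.66 at 8 weeks to -0.11 at 5 days. So few cells give uncertain values. The r values over 8-week cells and over both times also include the 14 cells of cluster 16, which held 0 5-day cells. Their part in these values was not tested.

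**Figure D5:**
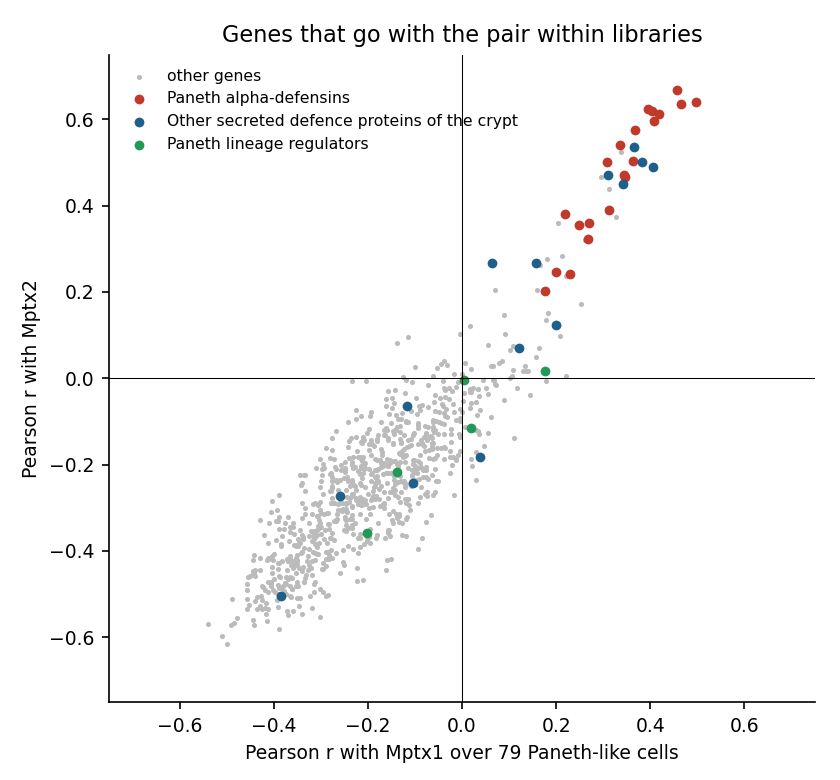
Pearson r of each of 875 genes with Mptx1 (horizontal) and Mptx2 (vertical) over 79 Paneth-like cells, as deviations from library means on the log2(transcripts per 10000 + 1) scale. Alpha-defensins (red) lie at the upper right, from 0.20 to 0.67 for Mptx2, and most other genes lie below 0.

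In the 5-day against 8-week fit, more defence genes of Paneth cells rose than fell, and many did not pass. Over all genes tested 22.1% rose and 22.5% fell, the shares against which the counts of each list stand. Of 26 alpha-defensins 21 were tested, 10 rose, 0 fell and 11 did not pass, with a median log2 fold change of 0.63 beside 0.01 over all genes tested. The largest rises included those of Gm15308 (4.34), Defa20 (2.83), Gm15315 (2.08), Gm15299 (1.18) and Gm21002 (1.17). Gm14851, the gene most like Mptx2 from cell to cell, did not pass, at 0.04. Of 22 other secreted defence proteins 14 were tested, 8 rose, 1 fell and 5 did not pass, with a median of 1.01. The phospholipase Pla2g2a (2.30), the angiogenins Ang (1.81) and Ang4 (1.16), the protease Habp2 (1.72) and the lectin Itln1 (1.14) rose, and the scavenger receptor Dmbt1 fell by 1.38 on the log2 scale. Mptx1 and Dmbt1 were thus the genes of these lists and the pentraxin list that fell.

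All 5 regulators tested of the 12 listed rose, which were Spdef (3.37), Bhlha15 (1.93), Tcf7l2 (1.81), Sox9 (1.01) and Xbp1 (0.75), transcription factors of the secretory lineage or its protein-folding capacity. The 7 goblet markers tested also all rose, with a median of 2.04. None of the 12 genes of the acute phase cytokine pathway, through which liver pentraxins are switched on, and none of the 16 complement and Fc receptor genes was high enough to be tested.

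The kept cells had median depths of 5412 to 14458 transcripts by library and totals of 370384 to 1383151. Of 3172205 values above 0, 145 were at the ceiling of the molecular barcode count, 0 of them of Mptx1 or Mptx2. No profile was shared between libraries, and all libraries used the same 96 barcode numbers.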

How the data were processed

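The authors sorted cells and made CEL-seq libraries, per the labels' protocols, while BWA 0.6.2-r126 and the build mm10 are listed, without a stated role, in the submitters' processing notes. Strand use, the gene models and the treatment of reads that fit several genes are not given in the sources used here. The deposited tables hold estimated counts of transcripts per gene and barcode, whose values are those that whole numbers of molecular barcodes take after a correction for collisions, as read from the values. Among columns of the combined deposited table, 576 could not be matched to 1 sample by name and were not used.

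Cells (at least 3000 transcripts) were clustered with scanpy 1.11.5 and leidenalg (resolution 1, 2000 variable genes, 30 components, 10 neighbours) on a random binomial part of the counts without Mptx1 and Mptx2. A cluster was named from at least 3 markers raised within libraries by at least 0.25 log2 units, with 1 or more among its 10 leading genes. A cluster with over 85% of its cells from 1 library stayed unnamed. Paneth-like counts were summed per library, rounded and tested with edgeR 4.0.16 (TMM, filterByExpr) at an adjusted p of 0.05, and DESeq2 1.42.0 was an alternative. The fit was tested on simulated counts. No doublet caller was run. Exact permutation tests compared shares. Intervals are exact binomial, at 95%, for counting error only. Named genes were, by r, the 10 highest and 5 lowest to Mptx2 and 5 highest to Mptx1, and, in the fit, up to 6 passing members per list, of which some are not reported here. Genes and lists were chosen with earlier results of these data known. Promoters are from RefSeq, where both genes were matched by symbol.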

Additional observations from a re-analysis of the deposited data

How the results depend on the processing

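Of 141 alternatives, 132 were counted as unchanged. For tested values this meant the same direction and side of the threshold, and for most others a place within the spread between libraries. Among the 132 were 14 and 13 for the shares of cells with Mptx1 and Mptx2, and 14 for the Mptx2 part. Their exact permutation p could not go below 0.1, so they could not change side, and only their direction was checked. A further 18 were counts of genes that passed, from 389 to 599, with neither a p nor a spread between libraries. The 5-day against 8-week change kept its direction and call in 20 of 20 alternatives for each gene, with adjusted p from 2.33e-15 to 0.00116 for Mptx1 and from 1.45e-10 to 0.0182 for Mptx2 by edgeR or DESeq2. The number of genes that passed, 505 by edgeR, was 292 with DESeq2 and 41 in the cluster that holds most 5-day cells, a fit with fewer cells, libraries and genes. The Mptx2 part differed by 23.9 percentage points over libraries with at least 1 Paneth-like cell and by 22.6 over all kept cells, both at an exact permutation p of 0.0357. The log2 ratio of traced to non-traced means at 8 weeks moved to 0.068 for Mptx1 and 0.49 for Mptx2 in cluster 12, and for Mptx2 to 0.56 both at resolution 0.5 and without cluster 16, and the cause was not tested. With 1 library left out, log2 fold changes ran from -2.71 to -1.91 for Mptx1 and from 1.40 to 1.89 for Mptx2, genes that passed from 389 to 571, and the Mptx2 part from 21.7 to 26.5 percentage points. The 8-week ratios ran from 0.40 to 1.249 for Mptx1 and from 0.76 to 1.18 for Mptx2, and the difference in the share of positive cells from -28.3 to -1.42 points for Mptx1 and from -15.4 to 1.236 for Mptx2, reversed without 8-week traced CD24+ replicate 2.

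Replicates 2 and 3 of both times share only a number, with residual correlations of 0.053 and -0.008. With the replicate block on these 2 against 2 libraries, log2 fold changes were -2.77 for Mptx1 and 1.61 for Mptx2 and 469 genes passed, against -2.80, 1.58 and 499 without it. A comparison within rounds of 8-week libraries was not run, since names in the combined table do not tie a round to a library. Depth limits Mptx1 most: 3 counts come to 0.0968 to 0.574 per 10000 in libraries with at least 3 Paneth-like cells.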
